A study of Mus musculus with 2 samples.

Results

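The 34 genes described here make up the fibroblast growth factor (FGF) module of the mouse neural tube at embryonic day 12.5: 11 paracrine ligands, 1 endocrine-type ligand, 4 intracellular FGFs, 4 receptor kinases, 1 receptor without a kinase, 2 adaptors, 7 feedback inhibitors, 3 ETS transcription factors and 1 ligand-binding protein. They were found by symbol among the 55536 genes of the GENCODE M21 gene tables, and all 34 had a row. The study profiled polyadenylated RNA of 1 kind of sample in 2 libraries, each from its own pool of B6NCrl embryos of both sexes. Replicate 2 pooled 88 embryos and replicate 1 pooled 120, the labels name no treatment or mutant allele for either, and each library started from 10 ng of RNA. With 1 group, a level is a description, given as TPM (a unit of transcript abundance corrected for length) in each library and as mean ± SD (n = 2), and the libraries can be compared only with each other.

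Most FGFs are secreted proteins that bind receptor tyrosine kinases together with heparan sulfate. The receptor then phosphorylates the docking proteins FRS2 and FRS3, which recruit GRB2 and SOS and switch on the RAS-MAPK cascade. That cascade induces ETS transcription factors of the PEA3 group, and also the Sprouty, Spred and Dusp6 genes, whose products dampen the same pathway. In the developing spinal cord the pathway is known for keeping caudal progenitors uncommitted, for the growth of the progenitor pool and, later, for the switch to glial production.

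Receptors 1 to 3 each choose between a pair of mutually exclusive exons for the second part of the third Ig-like domain, which sets the ligands they bind. The upstream exon gives the IIIb form, known best from epithelia, and the downstream exon the IIIc form, known from mesenchyme and nervous tissue. The IIIb exons of Fgfr2 and Fgfr3 are shown, since Fgfr2 used its IIIb exon to a clear extent here and Fgfr3 hardly at all. They are given 5′ to 3′ from the GENCODE M21 transcripts (mm10), with capitals marking bases that are the same in the other exon.
Fgfr2 IIIb exon (chr7:130199758-130199905, minus strand): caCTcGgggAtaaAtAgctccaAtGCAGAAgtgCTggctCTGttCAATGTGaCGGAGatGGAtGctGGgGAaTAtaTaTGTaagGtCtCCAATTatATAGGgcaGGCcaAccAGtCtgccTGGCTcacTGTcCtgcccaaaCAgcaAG
Fgfr3 IIIb exon (chr5:33731281-33731431, plus strand): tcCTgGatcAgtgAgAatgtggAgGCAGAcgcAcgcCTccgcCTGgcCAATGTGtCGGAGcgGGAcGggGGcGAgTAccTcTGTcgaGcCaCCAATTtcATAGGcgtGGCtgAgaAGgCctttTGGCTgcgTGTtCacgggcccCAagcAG
The 2 exons had the same base at 77 of 148 aligned positions (52.0%). Within Fgfr3, the IIIb and IIIc exons matched at 73 of 142 aligned positions (51.4%).

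The library of replicate 2 held 35461403 estimated counts and that of replicate 1 held 33529531. Progenitor markers were present, with all 5 of the list at 1 TPM or more and a sum of 1944 TPM in replicate 2 and 1908 TPM in replicate 1, as were all 5 neuronal markers with sums of 1934 TPM in replicate 2 and 1773 TPM in replicate 1. The tissue also held RNA of other cell types. All 8 mesenchyme and meninges markers reached 1 TPM in both libraries, with sums of 869.8 TPM in replicate 2 and 847 TPM in replicate 1, as did all 6 skeletal muscle, all 5 epidermis and all 4 endothelium markers. A level given here is thus an average over all of these cells.

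Most members were expressed. A level of 1 TPM or above in each library was taken as expression, and 26 of 34 members reached it, beside 60.9% of the 22028 protein-coding genes. All 8 members below it were paracrine ligands. The members leave out 6 other FGF ligands, all below 1 TPM in both libraries. The share expressed and the median of the members thus depend on which ligands were listed. The median member stood at 9.38 TPM in replicate 2 and 7.89 TPM in replicate 1, against a median of 5.11 TPM over all protein-coding genes. Over the protein-coding genes expressed in both libraries the median was 21.7 TPM, and most of the expressed members had a mean below that. In both libraries 15 members reached 10 TPM. The highest were the intracellular Fgf13, the ligand carrier Fgfbp3, the receptors Fgfr1, Fgfr2 and Fgfr3, and the ligand Fgf15. In that order of M21 means, the ranges of Fgf13 and Fgfbp3 overlapped, as did those of Fgfr3 and Fgf15. Those of Fgfbp3 and Fgfr1, of Fgfr1 and Fgfr2, and of Fgfr2 and Fgfr3 did not. In the older M4 annotation the ranges of Fgfr1 and Fgfr2 did overlap, and those of Fgfr3 and Fgf15 did not. There Fgfr1 was at 61.5 TPM in replicate 2 and 57.3 TPM in replicate 1, and Fgfr2 at 55.9 TPM in replicate 2 and 57.8 TPM in replicate 1.

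**Figure D1:**
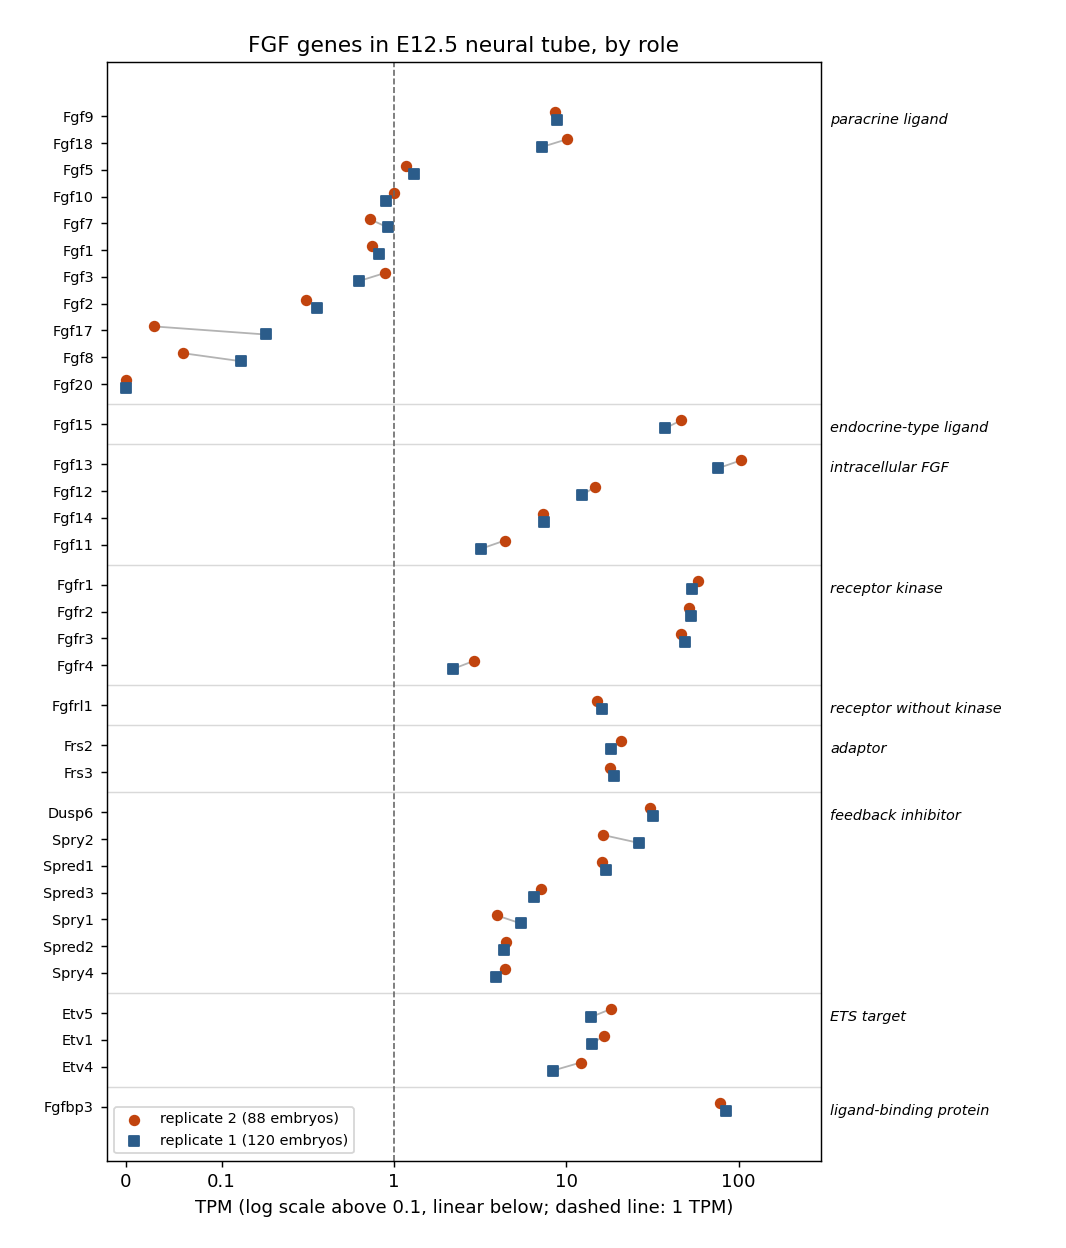
Level of each of the 34 FGF genes in TPM (horizontal axis, log scale above 0.1 and linear below), grouped by role, with circles for replicate 2 and squares for replicate 1. Paracrine ligands run from 0 for Fgf20 to 10.2 TPM for Fgf18 in replicate 2, while 3 of the 4 receptor kinases lie between 46.1 and 57.8 TPM in both libraries.

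Among the paracrine ligands, which act on neighbouring cells, 2 were well above the rest. Fgf9, a ligand made by neurons among other cells, was at 8.59 TPM in replicate 2 and 8.88 TPM in replicate 1. Fgf18, a ligand with roles in skeletal and lung growth, was at 10.2 TPM in replicate 2 and 7.19 TPM in replicate 1. Their order changed between libraries, so the 2 could not be ranked, and together they were most of the paracrine TPM: Fgf9 took 39.0% ± 3.85 and Fgf18 38.3% ± 6.47 (SD, n = 2).

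The other paracrine ligands sat near or below 1 TPM. Fgf5, known for its part in the hair cycle, was at 1.18 TPM in replicate 2 and 1.30 TPM in replicate 1 and was the remaining one past the threshold in both. Fgf10, the limb and lung bud ligand, was at 1.00 TPM in replicate 2 and 0.90 TPM in replicate 1. Fgf7, a mesenchymal ligand for epithelia, was at 0.73 TPM in replicate 2 and 0.92 TPM in replicate 1. Each of these was covered by fewer reads than the leading pair, with 39 counts for Fgf7 in replicate 2 and 37 in replicate 1. Fgf1, which has no signal peptide and is released without the secretory pathway, was at 0.75 TPM in replicate 2 and 0.82 TPM in replicate 1. Fgf3, an inner ear and hindbrain ligand, was at 0.89 TPM in replicate 2 and 0.63 TPM in replicate 1. Fgf2, which also lacks a signal peptide, was at 0.31 TPM in replicate 2 and 0.36 TPM in replicate 1. Its exons overlap 640 bases of Nudt6 on the opposite strand (4.04 TPM in replicate 2 and 2.92 TPM in replicate 1), and since no strand-specific step is named, reads of the pair cannot be told apart. Fgf2 also had the largest uncertainty of read assignment among the members, the posterior SD being 5.66% of its count in replicate 2 and 4.31% in replicate 1, and its mean was 0.51 TPM in the older M4 annotation against 0.335 TPM in M21.

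Fgf8, Fgf17 and Fgf20 were almost without reads. Fgf8, the main signal of the midbrain-hindbrain organizer and also a tail bud and limb ligand, had 1 count in replicate 2 and 2 in replicate 1. Fgf17, its close relative, had 1 count in replicate 2 and 6 in replicate 1. Fgf20, of the Fgf9 subfamily, was at 0 in both, which allows up to 3 counts, or 0.149 TPM in replicate 2 and 0.154 TPM in replicate 1; its exons overlap 202 bases of Micu3 on the opposite strand. These 3 genes were below the minimum of 10 counts in a library that was set for the comparison of the libraries. In the same libraries the midbrain marker Otx2 was at 0.070 TPM in each, and En2 was at 0.040 TPM in replicate 2 and at 0 in replicate 1, while Pax2, En1 and Wnt1 of that list were above 1 TPM.

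Fgf15 exceeded all paracrine ligands added together. It is the mouse counterpart of human FGF19, which acts as a gut hormone in the adult and is made in the embryonic nervous system. Fgf15 (chr7:144896531-144900953, plus strand) was at 46.6 TPM in replicate 2 and 37.6 TPM in replicate 1, where the 11 paracrine ligands summed to 23.7 TPM in replicate 2 and 21.3 TPM in replicate 1. On the log2 scale its level was above that sum by 0.97 in replicate 2 and by 0.82 in replicate 1. It lies in a row of 3 ligand genes on chromosome 7, after Fgf3 and Fgf4, with gaps of 2930 bases between Fgf3 and Fgf4 and of 31287 bases between Fgf4 and Fgf15. Fgf4, an early embryo and limb ligand that is no member, was at 0.27 TPM in replicate 2 and 0.29 TPM in replicate 1, so the 3 neighbours differed widely in level. Fgf15 shares 761 exon bases with the antisense gene Gm26793, which was at 4.18 TPM in replicate 2 and 4.46 TPM in replicate 1. The klotho genes Kl and Klb, co-receptors of endocrine FGFs, were low. Kl was at 0.15 TPM in replicate 2 and 0.13 TPM in replicate 1, and Klb had 2 counts in replicate 2 and 4 in replicate 1. Their bearing on Fgf15 in this tissue was not tested.

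The intracellular FGFs, also called FGF homologous factors, are not secreted and bind the tails of voltage-gated sodium channels in neurons. All 4 were expressed, and Fgf13 took 78.2% ± 2.13 of their summed TPM (SD, n = 2). Fgf13 (chrX:59062145-59568071, minus strand), which also binds microtubules in growing neurons, was at 103 TPM in replicate 2 and 75.8 TPM in replicate 1, the highest mean of all members and in the 91.4th percentile of protein-coding genes. Fgf12 was at 14.6 TPM in replicate 2 and 12.4 TPM in replicate 1, and Fgf14 at 7.36 TPM in replicate 2 and 7.40 TPM in replicate 1. Fgf11, at 4.39 TPM in replicate 2 and 3.22 TPM in replicate 1, was the lowest. No pair of neighbours in that order overlapped in range in M21. The value of Fgf12 depended on the annotation, with a mean of 13.5 TPM in M21 and 6.47 TPM in M4. Its place above Fgf14 was reversed in M4. There Fgf12 was at 6.14 TPM in replicate 2 and 6.80 TPM in replicate 1, and Fgf14 at 7.72 TPM in replicate 2 and 7.80 TPM in replicate 1.

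The receptor kinases were the role with the largest summed level, at 158 TPM in each library. Fgfr1, expressed widely in the embryonic nervous system, was at 57.8 TPM in replicate 2 and 53.8 TPM in replicate 1. Fgfr2 was at 51.3 TPM in replicate 2 and 53.3 TPM in replicate 1. Fgfr3, which marks radial glia and later astrocytes and restrains bone growth, was at 46.1 TPM in replicate 2 and 48.9 TPM in replicate 1. The 3 lay within a narrow band, each with 30.1% to 35.3% of the receptor TPM on average. Fgfr4, a receptor of liver and embryonic muscle, stood apart at 2.90 TPM in replicate 2 and 2.19 TPM in replicate 1, which was 1.61% ± 0.317 of the sum (SD, n = 2). Fgfrl1, which binds FGFs but has no kinase domain, was at 15.1 TPM in replicate 2 and 16.2 TPM in replicate 1. The receptor kinases exceeded the paracrine ligands by 2.74 in replicate 2 and by 2.89 in replicate 1 on the log2 scale. In the M21 annotation the Fgfr2 gene spans chr7:130162451-133123350 and shares 314 same-strand exon bases with Ctbp2, a gene at 103 TPM in replicate 2 and 95.7 TPM in replicate 1.

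**Figure D2:**
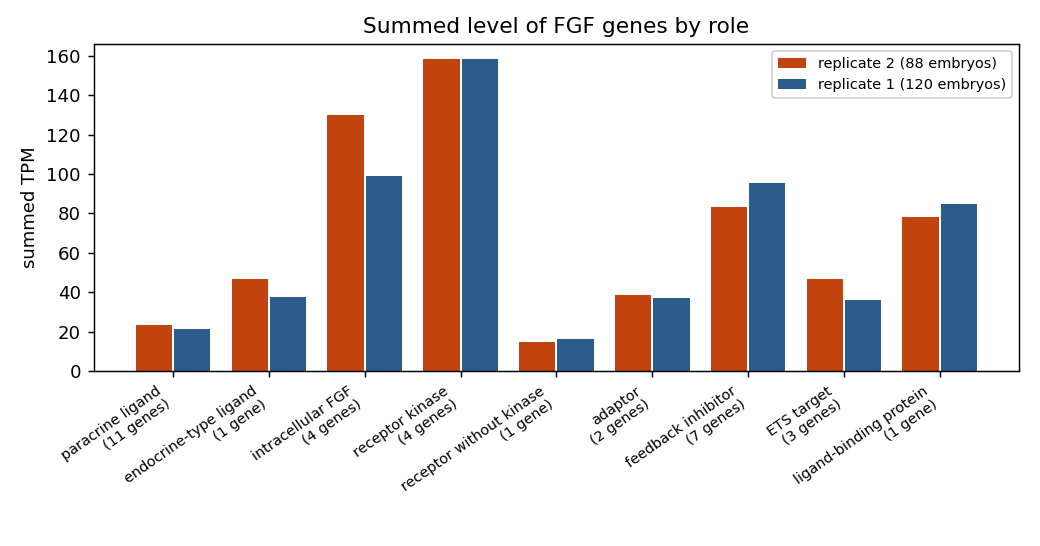
Summed TPM of the members of each role (vertical axis, linear from 0), replicate 2 left of replicate 1. Receptor kinases reach 158 TPM in each library, and intracellular FGFs 130 TPM in replicate 2 and 98.8 TPM in replicate 1, above the paracrine ligands at 23.7 TPM in replicate 2 and 21.3 TPM in replicate 1.

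The receptors differed in their choice of the third Ig-like domain exon. Transcripts were sorted by whether the annotation gives them the IIIb exon, the IIIc exon, both or neither, and their TPM was added. In Fgfr1 no TPM was assigned to a transcript with the IIIb exon alone, so IIIc made up all of the TPM with a single exon in both libraries. One Fgfr1 transcript annotated for nonsense-mediated decay holds both exons and was at 3.52 TPM in replicate 2 and 3.19 TPM in replicate 1. In Fgfr3, IIIc made up 96.8% of IIIb plus IIIc in replicate 2 and 98.4% in replicate 1. In Fgfr2, IIIc made up 73.8% in replicate 2 and 72.7% in replicate 1, which left a IIIb share of 26.2% in replicate 2 and 27.3% in replicate 1. Both Fgfr2 values lay below every value of the other 2 receptors, with an SD between libraries of 0.78 percentage points for Fgfr2 and 1.13 for Fgfr3. Epidermal markers were present beside the Fgfr2 IIIb form, with all 5 of the list above 1 TPM, a sum of 33.2 TPM in replicate 2 and 33.98 TPM in replicate 1, and Krt5 the highest at 10.8 TPM in replicate 2 and 10.1 TPM in replicate 1. Their part in the IIIb share was not tested.

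**Figure D3:**
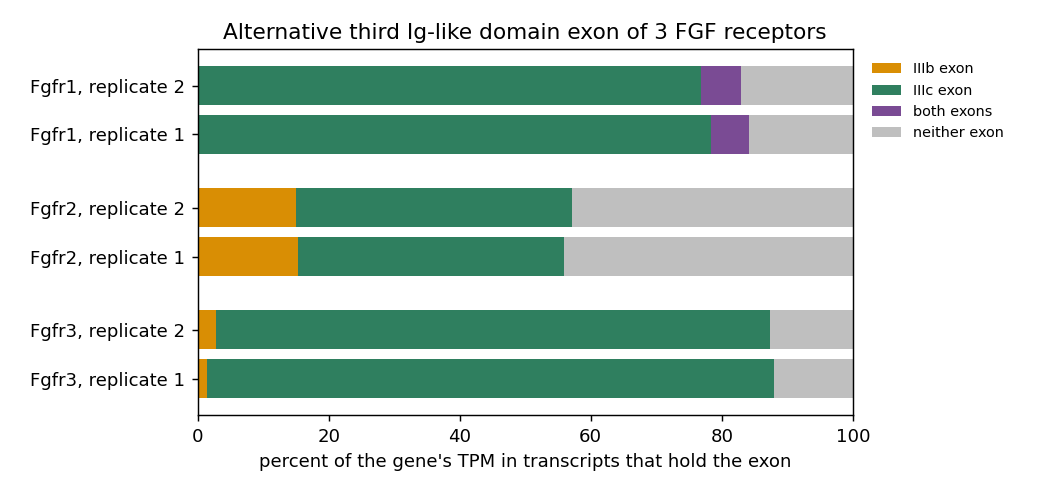
Percent of each receptor's TPM (horizontal axis) in transcripts that hold the IIIb exon, the IIIc exon, both or neither, with replicate 2 above replicate 1 for each gene. Fgfr2 has 14.996% of its TPM in IIIb transcripts in replicate 2 and 15.3% in replicate 1, Fgfr3 has 2.80% in replicate 2 and 1.41% in replicate 1, and Fgfr1 has none.

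A large part of the Fgfr2 TPM was in transcripts annotated with neither exon, 42.9% in replicate 2 and 44.1% in replicate 1. The largest of these transcripts was Fgfr2-217, a short coding form of 7 exons, with 23.3% of the gene in replicate 2 and 22.7% in replicate 1. Transcripts with a retained intron added 19.6% in replicate 2 and 21.4% in replicate 1. All of these were short models of 1 to 7 exons, to which TPM gives more weight than counts do. In replicate 2 Fgfr2-221, of 2 exons, had 86.1 counts and 5.75 TPM, beside 1161 counts and 12.99 TPM for Fgfr2-207. The long transcripts annotated with neither exon, Fgfr2-212 and Fgfr2-226, were at 0 TPM in both libraries. The share is thus no measure of how often full-length transcripts skip the pair. For Fgfr1 the share with neither exon was 17.1% in replicate 2 and 15.8% in replicate 1, and for Fgfr3 it was 12.6% in replicate 2 and 12.0% in replicate 1. The leading full-length forms were Fgfr1-202, with 52.8% of the gene in replicate 2 and 46.3% in replicate 1, Fgfr2-207, with 25.3% in replicate 2 and 25.04% in replicate 1, and Fgfr3-215, with 28.8% in replicate 2 and 29.1% in replicate 1. Shares of transcripts are estimates from reads that several transcripts share: Fgfr3-201 had 803 counts in replicate 2 (posterior SD 182) and 937 in replicate 1 (posterior SD 220), and the IIIb transcript Fgfr3-211 had 109 counts in replicate 2 (posterior SD 59.1) and 56.9 in replicate 1 (posterior SD 39.4).

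Exons elsewhere in the receptors also varied. The exon of the first Ig-like domain can be skipped, which gives the shorter beta form of the receptor instead of the alpha form. Among full-length coding transcripts, this 267-base exon was present in 92.9% of the Fgfr1 TPM in replicate 2 and 82.6% in replicate 1, and in 29.4% of the Fgfr2 TPM in replicate 2 and 27.9% in replicate 1. The matching 270-base exon was present in all of the Fgfr3 TPM. The Fgfr1 values rest on Fgfr1-203, the form without that exon, which had 254 counts in replicate 2 (posterior SD 129) and 566 in replicate 1 (posterior SD 118). After the third Ig-like domain, an alternative splice donor adds 6 bases, which encode valine and threonine in the stretch that binds the FRS docking proteins. The last 30 bases of the longer Fgfr2 exon are shown with those 6 bases in capitals, because both ends of the exon were used in this receptor.
Fgfr2, end of the longer exon (chr7:130196172-130196201, minus strand): aagcgcatccccctgcggagacagGTAACA
The longer exon was in 55.7% of the Fgfr2 TPM that held one or the other end in replicate 2 and in 55.2% in replicate 1. In Fgfr1 it was in 92.7% in replicate 2 and 92.96% in replicate 1. These shares were not limited to coding transcripts. The Fgfr1 TPM with the shorter end, 3.52 in replicate 2 and 3.19 in replicate 1, was all in Fgfr1-208, the transcript annotated for nonsense-mediated decay. No full-length coding Fgfr1 transcript with TPM lacked the 6 bases. Fgfr4 was 90.7% Fgfr4-201 in replicate 2 and 100% in replicate 1, and Fgfrl1 was mainly Fgfrl1-201, with 62.2% in replicate 2 and 61.0% in replicate 1.

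Downstream of the receptors, both docking adaptors were present, at like levels in the M21 annotation. Frs2 was at 20.8 TPM in replicate 2 and 18.1 TPM in replicate 1, and Frs3, a relative with a more neural expression, at 17.9 TPM in replicate 2 and 18.9 TPM in replicate 1. Their ranges overlapped. Fgfbp3, a secreted protein that carries FGFs off the matrix, was at 78.3 TPM in replicate 2 and 84.8 TPM in replicate 1, in the 90.4th percentile of protein-coding genes.

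All 7 feedback inhibitors were expressed, with a summed level of 83.1 TPM in replicate 2 and 95.5 TPM in replicate 1. Dusp6, the phosphatase that removes phosphate from ERK, led at 30.6 TPM in replicate 2 and 31.7 TPM in replicate 1. Spry2, a Sprouty inhibitor of RAS activation, was at 16.4 TPM in replicate 2 and 26.6 TPM in replicate 1. Spred1, which brings neurofibromin to RAS, was at 16.2 TPM in replicate 2 and 17.0 TPM in replicate 1. The ranges of Spry2 and Spred1 overlapped, and both lay below Dusp6 in each library. Spred3 was at 7.10 TPM in replicate 2 and 6.52 TPM in replicate 1, Spry1 at 3.94 TPM in replicate 2 and 5.43 TPM in replicate 1, Spred2 at 4.46 TPM in replicate 2 and 4.33 TPM in replicate 1, and Spry4 at 4.43 TPM in replicate 2 and 3.89 TPM in replicate 1. The ranges of Spry1, Spred2 and Spry4 overlapped and gave these 3 no order.

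The 3 ETS genes of the PEA3 group were all expressed, with a sum of 46.9 TPM in replicate 2 and 36.3 TPM in replicate 1. Etv5 was at 18.2 TPM in replicate 2 and 13.9 TPM in replicate 1. Etv1, also a marker of some sensory and motor neurons, was at 16.6 TPM in replicate 2 and 14.1 TPM in replicate 1. Etv4 was at 12.1 TPM in replicate 2 and 8.38 TPM in replicate 1. The ranges of Etv5 and Etv1 overlapped, and Etv4 lay below both. For Etv4 the ratio of counts was smaller than that of TPM, since the estimated mix of transcripts differed: it had 437 counts in replicate 2 and 369 in replicate 1, divided by an effective length of 1664 bases in replicate 2 and 2102 bases in replicate 1.

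Between the 2 pools, 10 of the 31 members with enough reads differed beyond counting error. Fgf13, Fgf15, Fgf11, Fgf18, Frs2 and Etv5 were higher in replicate 2, and Spry2, Spry1, Fgfr3 and Fgfbp3 were lower. The two-sided exact binomial test of their counts against the scaled library sizes was used, with Benjamini-Hochberg adjustment at 0.05 over 20125 genes. Of all those genes 10.2% were called higher and 9.48% lower, together 19.7%, while the members called were 32.3% of the members tested. All 10 called members were among the 26 expressed ones, and of protein-coding genes expressed in both libraries 24.6% were called. The median log2 ratio of the members tested was 0.02, against -0.0009 over all genes. This test covers counting error only. The spread between libraries was included as the common dispersion of edgeR's exact test (a biological coefficient of variation of 7.36%). That dispersion was estimated over all genes from these same 2 libraries. A call by edgeR's test thus sets a gene apart from most genes and rests on no independent measure of spread. By edgeR's test Spry2 alone of the members was called, lower in replicate 2. Of all genes 0.432% were called higher and 0.696% lower, together 1.13%. Before adjustment 6 of the 31 members (19.4%) had a p below 0.05 in that test, beside 7.85% of all genes.

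Spry2 (chr14:105891947-105896819, minus strand) moved most. It had 705 counts in replicate 2 and 1106 in replicate 1, with a log2 ratio of -0.74 (adjusted p = 1.22e-24 by the exact binomial test and 0.00229 by edgeR's exact test). It was the one member whose ratio passed 1.5-fold, a size at which 4.57% of all genes were higher and 6.63% lower. Spry1 had 204 counts in replicate 2 and 269 in replicate 1, with a log2 ratio of -0.48 (adjusted p = 0.00307 by the exact binomial test and 0.403 by edgeR's exact test). The other feedback inhibitors, Dusp6, Spred1, Spred2, Spred3 and Spry4, had log2 ratios from -0.10 to 0.15 and were not called. The ETS gene Etv5 went the other way and had 1528 counts in replicate 2 and 1129 in replicate 1, with a log2 ratio of 0.35 (adjusted p = 3.07e-08 by the exact binomial test and 0.528 by edgeR's exact test). Spry2 stood below Etv5 by 0.15 on the log2 scale of TPM in replicate 2 and above it by 0.93 in replicate 1.

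Fgf13 had the smallest p among the members higher in replicate 2. It had 3740 counts in replicate 2 and 2610 in replicate 1, with a log2 ratio of 0.43 (adjusted p = 1.83e-29 by the exact binomial test and 0.215 by edgeR's exact test). Fgf11 and Fgf18 had like ratios with fewer reads, 0.45 and 0.46, with adjusted p of 0.0112 and 0.0207 by the exact binomial test. Fgf15 had a log2 ratio of 0.25 (adjusted p = 5.43e-05) and Frs2 one of 0.20 (adjusted p = 8.74e-04) by the same exact test. Fgfr3 and Fgfbp3 were lower by small amounts, with log2 ratios of -0.12 and -0.16. The remaining receptors were not called, with log2 ratios of 0.05 for Fgfr1, -0.07 for Fgfr2, 0.24 for Fgfr4 and -0.17 for Fgfrl1.

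**Figure D4:**
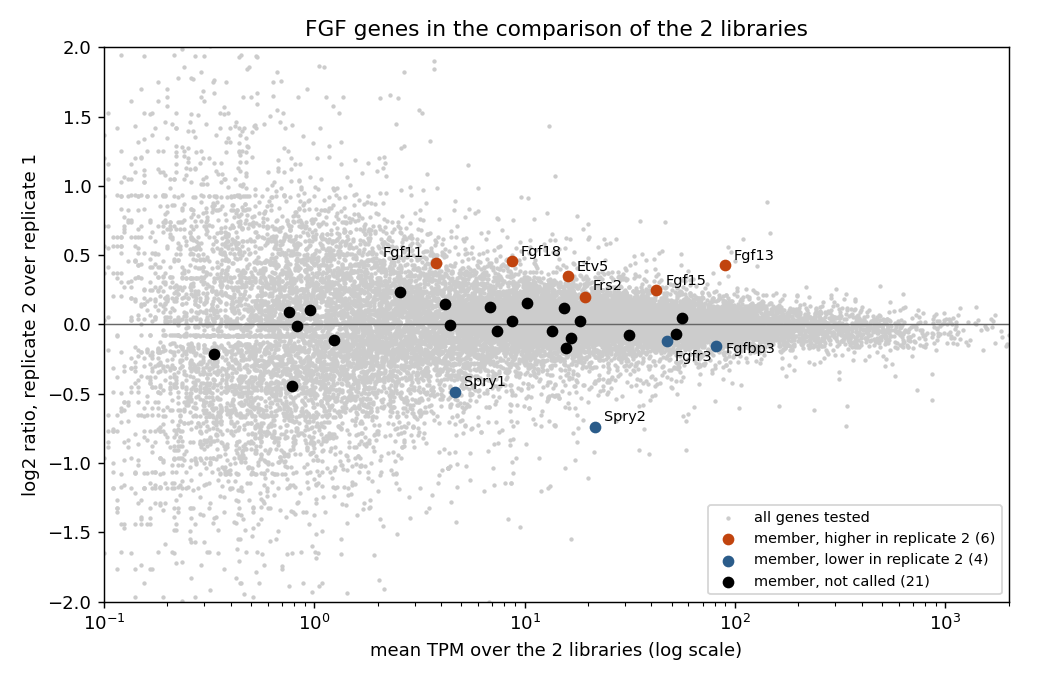
Log2 ratio of replicate 2 over replicate 1 (vertical axis) against the mean TPM (horizontal axis, log scale) for all genes tested in grey, with 220 of them outside the axes, and for the 31 members tested in colour. Spry2 lies lowest of the members at -0.74, and Fgf13 at 0.43 is the highest in level of the 6 members called higher in replicate 2.

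Markers of other cell types also differed between the pools. By the exact binomial test, which called 19.7% of all genes, 4 of 5 tail end markers tested were lower in replicate 2, with Cdx2 at 0 in both libraries and a sum of 7.52 TPM in replicate 2 and 24.4 TPM in replicate 1. By edgeR's exact test, which called 1.13% of all genes, the same number of tail end markers was lower. All 6 skeletal muscle markers were lower by the binomial test and 2, Actc1 and Myf5, by edgeR's, and their sum was 181 TPM in replicate 2 and 251 TPM in replicate 1. Of the 5 cartilage and sclerotome markers 3 were lower by the binomial test and 1, Pax1, by edgeR's, with a sum of 156 TPM in replicate 2 and 170.1 TPM in replicate 1. Sensory ganglion markers went the other way, with 5 of 6 higher by the binomial test and 3 by edgeR's, and a sum of 176 TPM in replicate 2 and 115 TPM in replicate 1. Of the 5 motor neuron markers 1 was higher by the binomial test, Isl1 at 148 TPM in replicate 2 and 105 TPM in replicate 1, and 4 were lower, but none was called by edgeR's. The binomial test also called 2 of 5 neuron markers higher and 1 lower, and 2 of 5 progenitor markers lower. It called 2 of 4 endothelium and 1 of 4 floor plate markers higher, and 1 of 8 mesenchyme and meninges markers lower. Of 3 midbrain-hindbrain markers tested 1 was higher and 1 lower, and none of 5 epidermis markers was called. By edgeR's, Wnt1 alone of these further lists was called, higher. The part of these cells in the differences of Spry2, Fgf13 or any other member was not tested, and in such bulk tissue fewer cells of a type and less RNA per cell cannot be told apart.

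Around the members, the relay of the pathway was expressed in full. Of 44 further pathway genes, 35 reached 1 TPM in each library, among them all 18 signal relay genes, all 8 heparan sulfate enzymes and all 7 other inhibitors or modulators. Among the highest were Map2k2, the MEK2 kinase, at 183 TPM in replicate 2 and 180.1 TPM in replicate 1, and the adaptor Grb2 at 147 TPM in replicate 2 and 136 TPM in replicate 1. The RAF kinase Araf had a mean of 139 ± 5.87 TPM, and Sulf2, which trims sulfate from heparan sulfate, had 116 ± 5.19 TPM (SD, n = 2). Below 1 TPM in a library were all 6 other ligands, Fgf4, Fgf6, Fgf16, Fgf21, Fgf22 and Fgf23, both klotho genes and the immediate early gene Fos. Fgf16, Fgf21 and Fgf23 had at most 2 counts in a library.

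Of 40 pathway genes tested, 7 were higher and 5 lower in replicate 2 by the exact binomial test, together 12 of 40, beside the 19.7% of all genes. None was called by edgeR's exact test, in which 3 of the 40 (7.50%) had an unadjusted p below 0.05, beside 7.85% of all genes. Those higher included Flrt1, a membrane partner of FGF receptors, at 7.79 TPM in replicate 2 and 5.45 TPM in replicate 1 (log2 ratio 0.47), and Hs6st1, a heparan sulfate sulfotransferase, at 27.2 TPM in replicate 2 and 21.99 TPM in replicate 1 (log2 ratio 0.26). The largest ratios among those lower were Fgf6, with 10 counts in replicate 2 and 26 in replicate 1, the phosphatase Ptpn11 at 15.8 TPM in replicate 2 and 19.6 TPM in replicate 1 (log2 ratio -0.36), and Dusp4 at 78.6 TPM in replicate 2 and 86.7 TPM in replicate 1 (log2 ratio -0.18). Dusp4, a nuclear phosphatase of ERK, was thus higher in level than each of the 7 feedback inhibitors among the members.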

How the data were processed

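RNA of both neural tube pools was primed with oligo-dT in a kit for very small inputs and cut by tagmentation, with ERCC RNAs spiked in, per the labels' protocols. Per the deposited notes, reads were quantified on mm10 against GENCODE M21 and, separately, M4. Which aligner and quantifier ran, and in which version, is not given in the sources used here. Columns carry RSEM's names, per the file headers. The deposited estimated count shares reads among matching genes and has a posterior SD, the deposited TPM is that count per effective length on a fixed total, and the deposited percent gives each transcript's share of its gene.

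From these, TPM was used unchanged. Estimated counts were rounded, genes under 10 counts in both libraries dropped, and sizes scaled by TMM (edgeR 4.0.16, R 4.3.3). The log2 ratio of replicate 2 over replicate 1 had a prior count of 2 added. An exact binomial test, two-sided, gave p-values with Benjamini-Hochberg adjustment. It compares these 2 libraries and no conditions. It was checked on counts simulated with counting error only, so the check cannot show how the test behaves with further spread between libraries. Alternatives were edgeR's exact test with a common dispersion, DESeq2 1.42.0 size factors, spike-in scaling, no count filter, other thresholds and the M4 tables. Of 2 mutually exclusive exons with the same neighbours the upstream one was taken as IIIb, and exons were aligned with Biopython 1.88. Other tools were Python 3.11.15 with scipy 1.17.1, pandas 2.3.3, numpy 2.4.6 and, for plots, matplotlib 3.10.9.

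At an effective length of 1 kb a single read stood for 0.0462 TPM in replicate 2 and 0.0478 TPM in replicate 1. Limits and the binomial test cover counting error only, and PCR copies count as separate reads. EdgeR's exact test also takes in the spread between the libraries, as estimated from these same 2 libraries. The labels call the libraries biological replicates. All members are named, and of the other pathway genes the 6 highest by mean TPM, those below 1 TPM in a library, and the 3 with the largest log2 ratio in each direction among those called, apart from a few that are not reported here. Single marker genes were picked after their values were seen, apart from the highest of a list. The members and lists were chosen with earlier results of these data known.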

Additional observations from a re-analysis of the deposited data

How the results depend on the processing

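The number of members at the expression threshold was 26, and it was 30 at a threshold of 0.5 TPM, 20 at 5 TPM, 26 in the M4 tables, 29 with the posterior mean TPM, and 26 to 27 with one library left out. For the other pathway genes it was 35, with 36 at 0.5 TPM and 30 at 5 TPM. The receptor kinase sum, 158 TPM with an SD of 0.0071 TPM between libraries, was 168 TPM in the M4 tables and 162 TPM with the posterior mean, and the paracrine ligand sum was 25.9 TPM with the posterior mean. The intracellular, feedback and ETS sums stayed within 1 SD under both. With one library left out, the sums ranged from 21.3 to 23.7 TPM for paracrine ligands, 98.8 to 130 TPM for intracellular FGFs, 83.1 to 95.5 TPM for feedback inhibitors and 36.3 to 46.9 TPM for ETS genes. The IIIc share of Fgfr2 was 80.5% in the M4 transcript tables and 71.1% with the posterior mean, that of Fgfr3 95.4% and 95.7%, and that of Fgfr1 99.4% with the posterior mean; with one library left out they ranged from 72.7% to 73.8% for Fgfr2 and 96.8% to 98.4% for Fgfr3. The cause of these shifts was not tested. The order of the 3 shares was the same under each of these settings.

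The same 10 members were called with DESeq2 size factors, with no count filter, with the M4 tables and with a prior count of 0.5. With spike-in scaling, which moved the median of all genes to 0.05 on the log2 scale, 8 were higher and 3 lower: Fgfr3 was no longer called, and Fgfr1 and Etv1 were called higher. With edgeR's exact test 0 members were higher and 1 lower, and 0 pathway genes were called in either direction. Leaving out a library leaves nothing to compare. No paired analysis was possible because there is 1 group. The number of pools limits every SD given, and the 3 members under 10 counts were left out of the comparison by its filter; without it Fgf8 and Fgf17 were tested and not called (adjusted p = 1 and 0.396 by the exact binomial test).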

Other observations

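Members outside the receptors also used several transcripts. Fgf13-202 made up 67.0% of Fgf13 in replicate 2 and 59.9% in replicate 1, and Fgf14-202 made up 90.3% of Fgf14 in replicate 2 and 91.0% in replicate 1. Fgf12 was shared between Fgf12-205, with 55.4% in replicate 2 and 43.3% in replicate 1, and Fgf12-201, with 33.2% in replicate 2 and 46.8% in replicate 1, so their order changed between libraries. Spry1 was 66.7% Spry1-201 in replicate 2 and 33.2% in replicate 1, and Spry1-203 took 27.3% in replicate 2 and 66.8% in replicate 1. Etv4-201 made up 42.5% of Etv4 in replicate 2 and 66.9% in replicate 1, while Etv5 had a single transcript with TPM. Read assignment was uncertain for these: Spry1-201 had 136 counts in replicate 2 (posterior SD 43.7) and 89.9 in replicate 1 (posterior SD 60.1), and Etv4-201 had 256 counts in replicate 2 (posterior SD 52.97) and 269 in replicate 1 (posterior SD 51.8). These differences were not tested.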
